A study of Gallus gallus with 6 samples.

Results

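PHGDH, PSAT1, PSPH and ALDH1L2 are genes of serine synthesis and mitochondrial folate metabolism, and their expression was compared in the uterus (shell gland) of laying and non-laying hens. They were taken by gene name from the table of genes that the authors deposited with their own comparison, and joined by Ensembl identifier to the tables of counts and RPKM. They are 4 of 19152 genes in the count table, and all 4 passed the filter on low counts that left 13317 genes for testing. Names were at hand for 516 of the 616 genes of the deposited table, so each of the 4 genes is known here only because the authors called it on these libraries. Neither the direction nor the size of the difference between the groups is therefore independent evidence for any of them.

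The layers were 3 Hy-Line hens of 35 weeks, sampled at 15 to 20 h post-ovulation while the egg was in the uterus. The non-layers were 3 Hy-Line hens of 35 to 60 weeks without growing ovarian follicles. Each hen gave 1 library of poly-A RNA with 14756666 to 20333103 gene counts, and because non-layers could be older, age and laying status cannot be told apart. The shell gland marker MEPE (ovocleidin-116, a matrix protein of the eggshell) was at 46485 to 52838 CPM in layers and at 12.4 to 37.8 CPM in non-layers. Over all 9 named genes of a list of 12 shell gland markers the summed CPM was 59102 to 78547 in layers and 2120 to 3389 in non-layers, with 5 DEGs. Ciliated cell markers (11 named of 12, 3 down-regulated) summed to 183 to 245 CPM in layers, against 446 to 585 CPM in non-layers, immune markers (9 named of 11, 1 up-regulated and 3 down-regulated) to 209 to 278 CPM in layers, against 283 to 352 CPM in non-layers, and markers of the egg white gland (3 named of 8, 3 up-regulated) to 171 to 443 CPM in layers, against 46.5 to 73.9 CPM in non-layers. Among the immune markers only BLNK, which the deposited table describes as SH2 domain containing 6, was higher in layers. It was at 94.3, 88.4 and 167 CPM in layers 1, 2 and 3, against 45.1, 30.9 and 41.3 CPM in non-layers 1, 2 and 3. The other 8 were lower, so the immune sum mixes both directions. No smooth muscle marker of a list of 8 carried a name, and the part of these cells in the results below was not tested. A marker carried a name only where the authors called it as different between layers and non-layers on these libraries. The sums leave out the other listed markers, so their differences between the groups are not independent evidence on the amount of any cell type. RNA came from pieces of uterine tissue without sorting of cells, so more cells of a type and more RNA per cell cannot be told apart.

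Cells make serine from an intermediate of glycolysis. PHGDH oxidises 3-phosphoglycerate, PSAT1 transfers an amino group from glutamate to the product, and PSPH removes the phosphate to release serine. Serine then donates a one-carbon unit to tetrahydrofolate, and in mammalian mitochondria ALDH1L2 oxidises 10-formyltetrahydrofolate to tetrahydrofolate and carbon dioxide, with formation of NADPH. The pathway feeds protein, glutathione, purine and thymidylate synthesis, and its enzymes are known in mammals as targets of the amino acid response.

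All 4 genes had a higher mean in the layers. By edgeR's quasi-likelihood test with Benjamini-Hochberg adjustment over all genes tested, PHGDH and ALDH1L2 were DEGs (2-fold or more, with the adjusted p below 0.05), whereas PSAT1 and PSPH were not. Of all genes tested, 0.901% were DEGs with higher expression in layers and 1.87% were DEGs in either direction. Every layer lay above every non-layer for 3 of the 4 genes, a pattern that 12.1% of all genes tested showed. The median log2 fold change of the 4 genes was 2.09, against 0.01 over all genes tested. The authors' calls on these libraries required a 2-fold change. A high median and separated groups thus follow in part from the choice of genes and are not independent evidence. Expression values are CPM after TMM normalisation, that is, counts scaled to a common library size with a correction for composition, unless RPKM is named.

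**Figure D1:**
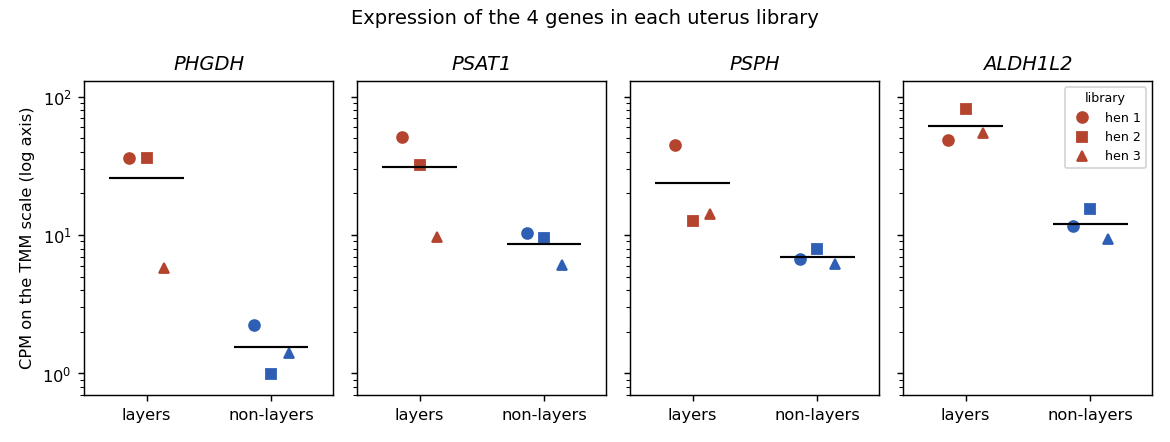
CPM on the TMM scale (log axis) of PHGDH, PSAT1, PSPH and ALDH1L2 in the 3 layers and the 3 non-layers, with 1 point per library and a bar at the arithmetic mean of the group. Layer 3 lies far below layers 1 and 2 for PHGDH and PSAT1, layer 1 lies far above layers 2 and 3 for PSPH, and the 3 layers lie close together for ALDH1L2.

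PHGDH (phosphoglycerate dehydrogenase, ENSGALG00000002988) lies on the minus strand of chromosome 8 of Galgal 5.0, from 4264703 to 4268005, with 3 annotated transcripts and 1729 exonic bases. Its counts were 614, 516 and 103 in layers 1, 2 and 3, against 37, 20 and 27 in non-layers 1, 2 and 3. On the CPM scale these were 36.4, 35.9 and 5.79 in layers, against 2.26, 0.986 and 1.41 in non-layers. Layer 3 was thus the low layer, yet it was still 2.56-fold above the highest non-layer. The exact 95% Poisson interval of the CPM, which covers counting error only, ran from 4.72 to 7.02 in layer 3 and from 1.59 to 3.11 in non-layer 1, so these neighbouring libraries were separated beyond counting error. The layers averaged 26.0 ± 17.5 CPM and the non-layers 1.55 ± 0.647 CPM (SD, n = 3 each). On the log2 scale the fold change was 4.07 ± 0.74 (SE), the edgeR adjusted p was 0.045, and the change ranked 20 among the 13317 genes tested. Leaving out layer 3 gave 4.56 with an edgeR adjusted p of 0.013. Leaving out any other library ended the call. The edgeR adjusted p was 0.098 without layer 1, 0.12 without layer 2, 0.17 without non-layer 1, 0.16 without non-layer 2 and 0.10 without non-layer 3. These fits called 41, 2, 0, 1 and 274 genes in this order, against 249 with all 6 libraries. The call was also lost with limma on log2(RPKM + 1), at 2.44 (adjusted p = 0.054), and with edgeR's glmTreat against a 2-fold change (adjusted p = 0.15).

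ALDH1L2 (aldehyde dehydrogenase 1 family member L2, ENSGALG00000012691) lies on the plus strand of chromosome 1 of Galgal 5.0, from 54341803 to 54369311, with 2 transcripts and 2891 exonic bases. It had 828, 1166 and 966 counts in layers 1, 2 and 3, against 190, 313 and 180 counts in non-layers 1, 2 and 3. The CPM were 49.1, 81.1 and 54.3 in layers, against 11.6, 15.4 and 9.39 in non-layers. The groups were well separated, with the lowest layer 3.18-fold above the highest non-layer. On the log2 scale the spread was of like size in both groups (SD 0.38 in layers and 0.36 in non-layers). The layers averaged 61.5 ± 17.2 CPM and the non-layers 12.1 ± 3.06 CPM (SD, n = 3 each). On the log2 scale the fold change was 2.34 ± 0.28 (SE) with an edgeR adjusted p of 0.026, a smaller change than that of PHGDH with a smaller error. Fits that left out 1 library gave 2.08 to 2.55, and ALDH1L2 was still a DEG without layer 1, without layer 3 or without non-layer 3. Its adjusted p by edgeR was 0.091 without layer 2, 0.14 without non-layer 1 and 0.089 without non-layer 2, and 0.096 with edgeR's glmTreat against a 2-fold change. The edgeR fits without layer 2, non-layer 1 and non-layer 2 called 2, 0 and 1 genes in all.

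The nearest gene of the deposited table to ALDH1L2 was C12orf45, which lies 1157 bases away on the opposite strand in Galgal 5.0, and the RefSeq models of these 2 genes overlap in the newer assembly GRCg7b. C12orf45 was at 54.2, 208 and 59.2 CPM in layers 1, 2 and 3, against 31.4, 32.4 and 28.7 CPM in non-layers 1, 2 and 3. Layer 2 was thus the highest library for both genes. It was the highest layer for 28.2% of all genes tested and 46.7% of the DEGs higher in layers. The kit keeps strand, but whether the authors counted by strand is not given in the sources used here. The part of shared reads in the value of layer 2 was not tested. In GRCg7b the RefSeq model of ALDH1L2 also overlaps the long non-coding RNA genes LOC121107114 and LOC112533513, whose part was not tested either.

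PSAT1 (phosphoserine aminotransferase 1, ENSGALG00000015180) lies on the plus strand of chromosome Z of Galgal 5.0, from 37963280 to 37978569, with 1 transcript of 2751 exonic bases. It had 861, 460 and 172 counts in layers 1, 2 and 3, against 170, 192 and 117 counts in non-layers 1, 2 and 3. The CPM were 51.0, 32.0 and 9.67 in layers, against 10.4, 9.46 and 6.10 in non-layers. Layer 3 lay within the range of the non-layers, and this was the 1 gene of the 4 whose groups overlapped. The layers averaged 30.9 ± 20.7 CPM and the non-layers 8.64 ± 2.25 CPM (SD, n = 3 each). The change of 1.84 ± 0.56 (SE) on the log2 scale did not pass, with an edgeR adjusted p of 0.13. Leaving out layer 3 gave 2.27 and made PSAT1 a DEG, with an edgeR adjusted p of 0.037. Leaving out layer 1 gave 1.27 with an edgeR adjusted p of 0.25, and the other fits with 1 library left out did not call PSAT1 either, with adjusted p-values of 0.24 to 0.33.

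PSPH (phosphoserine phosphatase, ENSGALG00000002397) lies on the minus strand of chromosome 19 of Galgal 5.0, from 4836675 to 4867667, with 2 transcripts and 2578 exonic bases. It had 752, 183 and 251 counts in layers 1, 2 and 3, against 110, 162 and 119 counts in non-layers 1, 2 and 3. The CPM were 44.6, 12.7 and 14.1 in layers, against 6.71, 7.98 and 6.20 in non-layers. Here layer 1 was the library that stood apart, while the other layers lay at least 1.59-fold above the highest non-layer. The layers averaged 23.8 ± 18.0 CPM and the non-layers 6.97 ± 0.917 CPM (SD, n = 3 each). The change of 1.77 ± 0.50 (SE) on the log2 scale had an edgeR adjusted p of 0.11 and did not pass. Without layer 1 it was 0.94, below the 2-fold threshold, with an edgeR adjusted p of 0.13, and PSPH was not called in any of the 6 edgeR fits with 1 library left out.

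All 4 genes had an unadjusted p under 0.05, as did 20.3% of all genes tested in either direction and 9.74% with higher expression in layers. An exact two-sided permutation test on log2 CPM gave p = 0.1 for PHGDH, PSPH and ALDH1L2, the smallest value that 3 libraries against 3 allow, and p = 0.2 for PSAT1. DESeq2's Wald test called all 4 genes, with an adjusted p of 0.011 for PSAT1 and 0.0070 for PSPH. Of the 13892 genes to which it gave an adjusted p, it called 3.2% higher in layers. The authors' calls, by which the 4 genes are known, come from DESeq2 too.

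**Figure D2:**
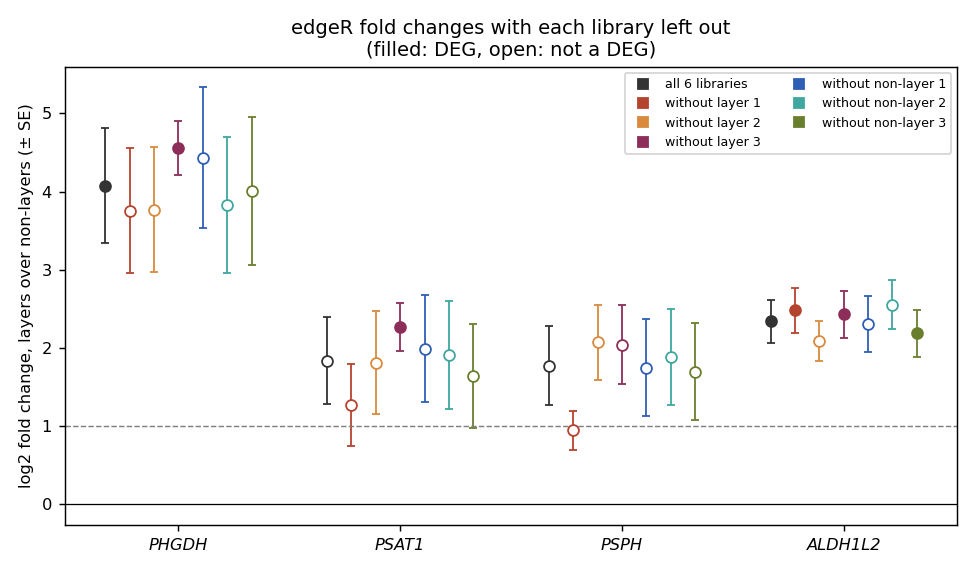
log2 fold change of layers over non-layers by edgeR, with the standard error as the bar, for each gene with all 6 libraries and with 1 library fewer in each of the other fits. The dashed line marks a 2-fold change. Filled points are DEGs, and only ALDH1L2 had filled points in more than 2 of the 7 fits, while PSPH was at 0.94 without layer 1.

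Whether the 4 genes varied together among the layers was examined next. A correlation over 3 libraries says little and none was computed, so the order of the layers and the deviation of each from the mean log2 CPM of the group are given. PHGDH and PSAT1 had the same order, with layer 1 highest and layer 3 lowest, which 20.8% of all genes tested shared. PSPH was highest in layer 1 and lowest in layer 2, an order found for 11.7% of genes tested. ALDH1L2 was highest in layer 2 and lowest in layer 1, as were 11.3%. Among the 120 DEGs higher in layers, which include PHGDH and ALDH1L2, the shares differed. There the order of PHGDH and PSAT1 was found for 22.5%, that of PSPH for 2.5% and that of ALDH1L2 for 21.7%. The 4 genes thus took 3 of the 6 possible orders and no layer was the highest or the lowest for all of them.

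The size of the spread also differed between the genes. The highest layer exceeded the lowest 6.29-fold for PHGDH, 5.28-fold for PSAT1, 3.50-fold for PSPH and 1.65-fold for ALDH1L2. Among the non-layers the same ratio was 2.29, 1.70, 1.29 and 1.64 for the 4 genes in this order. The SD of log2 CPM among layers was 1.53 for PHGDH, 1.24 for PSAT1, 1.0 for PSPH and 0.38 for ALDH1L2, against a median of 0.34 over all genes tested. Each gene was set beside the genes within 1.5-fold of its mean CPM over all 6 libraries. Among these, PHGDH varied more between layers than 98.4% of genes, PSAT1 more than 96.2%, PSPH more than 93.6% and ALDH1L2 more than 67.0%. By these shares the 3 enzymes of serine synthesis were among the more variable genes in layers, and ALDH1L2 was not. For PSPH this came from layer 1. The 4 genes are known through a difference between these groups, and their spread was not compared with that of the DEGs higher in layers. Between non-layers the same shares were 88.9% for PHGDH, 81.8% for PSAT1, 42.2% for PSPH and 85.3% for ALDH1L2. As the level was a mean over both groups and the 4 genes were lower in non-layers, the genes compared need not be of like level within non-layers. The part of counting error in these shares was not tested.

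Single layers differed in their part of this spread. The log2 CPM of layer 3 deviated from the mean of the layers by -1.76 for PHGDH and -1.38 for PSAT1, but by -0.50 for PSPH and -0.14 for ALDH1L2. Layer 1 deviated by 0.89 for PHGDH, 1.03 for PSAT1 and 1.16 for PSPH, and by -0.29 for ALDH1L2. Layer 2 deviated by 0.87 for PHGDH, 0.35 for PSAT1 and 0.43 for ALDH1L2, and by -0.65 for PSPH. The beta-globin gene HBBA, the 1 gene of 4 on a list of red blood cell markers that carried a name, was at 82.2, 58.3 and 386 CPM in layers 1, 2 and 3, against 53.3, 54.3 and 44.1 CPM in non-layers 1, 2 and 3. HBBA was thus highest in the layer with the lowest PHGDH and PSAT1. Layer 3 was the highest layer for 39.3% of all genes tested. The part of blood RNA in the values of PHGDH and PSAT1 was not tested.

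**Figure D3:**
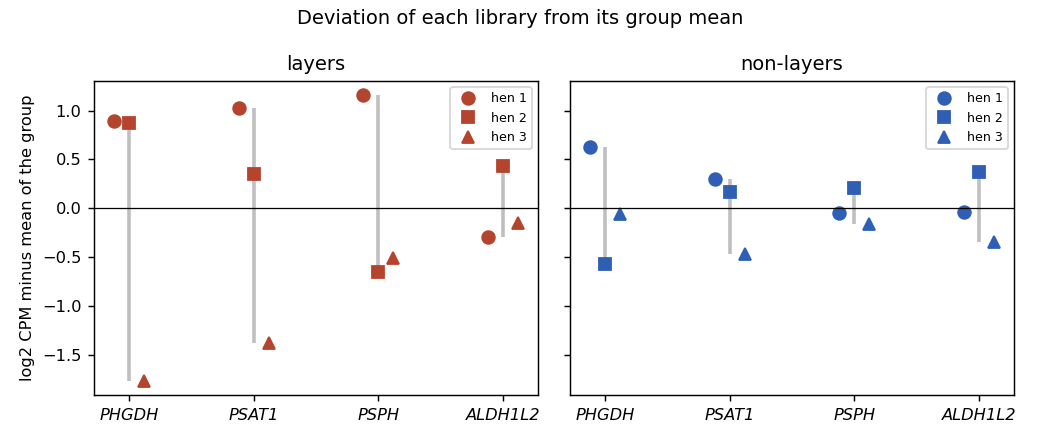
Deviation of log2 CPM of each library from the mean log2 CPM of its group, for layers (left) and non-layers (right), with a grey line from the lowest to the highest library. Layer 3 is at -1.76 for PHGDH and -1.38 for PSAT1, layer 1 is at 1.16 for PSPH, and ALDH1L2 spans the narrowest range among the layers.

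Ratios between 2 of the genes within a library do not depend on how the libraries were scaled, and 6 pairs were compared. PHGDH had 0.713, 1.12 and 0.599 CPM per CPM of PSAT1 in layers 1, 2 and 3, against 0.218, 0.104 and 0.231 in non-layers 1, 2 and 3. The first enzyme was thus near the level of the second in counts in the layers and well below it in the non-layers, and the groups did not overlap. The log2 ratio was 2.17 higher in layers (exact two-sided permutation p = 0.1, adjusted over 6 pairs 0.3). Within the layers this ratio spanned 1.87-fold, although PHGDH alone spanned 6.29-fold, so PHGDH and PSAT1 kept closest of the 6 pairs there. Within the non-layers it spanned 2.22-fold. That was more than PSAT1 to PSPH (1.57-fold), PSAT1 to ALDH1L2 (1.46-fold) and PSPH to ALDH1L2 (1.28-fold).

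PHGDH had 0.816, 2.82 and 0.410 CPM per CPM of PSPH in layers 1, 2 and 3, against 0.336, 0.123 and 0.227 in non-layers 1, 2 and 3. The log2 ratio was 2.22 higher in layers, without overlap (exact two-sided permutation p = 0.1, adjusted over 6 pairs 0.3), but it spanned 6.87-fold among the layers. The log2 ratio of PHGDH to ALDH1L2 was 1.41 higher in layers, and the groups overlapped (exact permutation p = 0.3, adjusted 0.6). The other pairs overlapped too. The log2 ratio of layers to non-layers differed by 0.04 for PSAT1 to PSPH (exact permutation p = 1), by -0.76 for PSAT1 to ALDH1L2 (p = 0.5) and by -0.81 for PSPH to ALDH1L2 (p = 0.4). With 3 against 3 libraries none of these exact tests can go below 0.1, so their p-values show neither that 2 of the genes changed by different amounts nor that they changed alike.

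**Figure D4:**
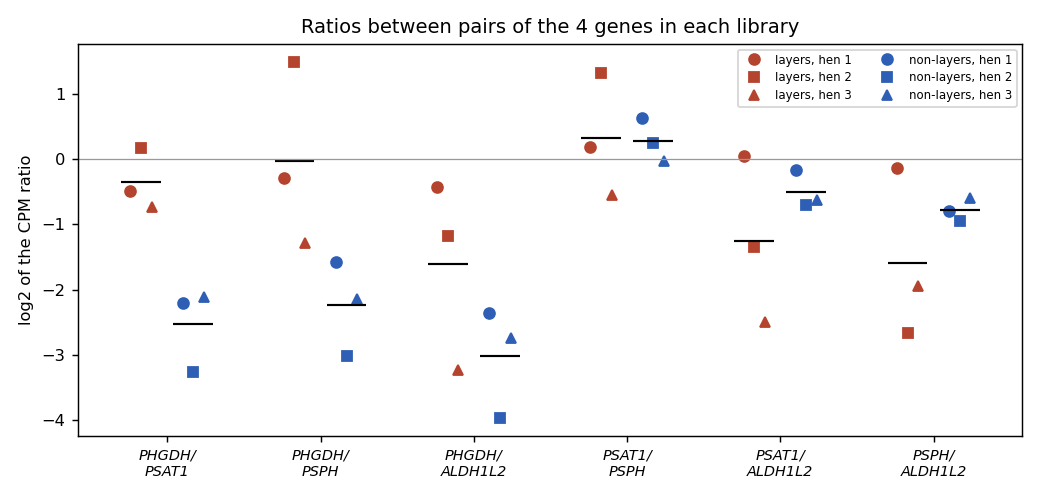
log2 of the ratio of CPM between each pair of the 4 genes in each library, with layers to the left of non-layers and a bar at the mean of each group. For PHGDH to PSAT1 and PHGDH to PSPH all 3 layers lie above all 3 non-layers, whereas the groups overlap for the other 4 pairs.

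Levels of different genes were compared on the deposited RPKM values, which are scaled by length. By the deposited values PSPH had the highest mean in layers at 25.8 ± 21.2 RPKM, followed by ALDH1L2 at 19.4 ± 4.56, PHGDH at 13.8 ± 9.14 and PSAT1 at 10.1 ± 7.12 RPKM (SD, n = 3). In non-layers the order was PSPH at 8.04 ± 1.53, ALDH1L2 at 4.85 ± 1.05, PSAT1 at 3.51 ± 0.813 and PHGDH at 1.28 ± 0.716 RPKM (SD, n = 3). Neighbours in the order of the layers were not separated beyond their spread. The first place of PSPH came from layer 1, with 50.3, 12.99 and 14.2 RPKM in layers 1, 2 and 3, where ALDH1L2 had 16.4, 24.6 and 17.1 RPKM. Without layer 1, left out after the values were seen, ALDH1L2 had the highest mean of the layers at 20.8 RPKM, followed by PSPH at 13.6, PHGDH at 10.8 and PSAT1 at 6.53 RPKM. PHGDH was the lowest of the 4 genes in each non-layer, but above PSAT1 in each layer, by 3.24 to 3.07 RPKM in layer 3.

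The place of PSPH in this order also depended on the length behind the RPKM. The length that the deposited counts and RPKM imply was constant at 2751 bases for PSAT1, the gene with 1 transcript, but lay between 828 and 1123 bases for PSPH, far below its 2578 exonic bases. For ALDH1L2 it lay between 2781 and 2829 bases, and for PHGDH between 1229 and 1727 bases, with 1727, 1675 and 1561 bases in layers 1, 2 and 3, against 1229, 1727 and 1406 bases in non-layers 1, 2 and 3. With the full exonic length in place of the implied one, PSPH was at 8.39 ± 6.72 RPKM in layers and 3.03 ± 0.292 RPKM in non-layers (SD, n = 3), the lowest of the 4 means in layers, and PHGDH in layer 3 was at 2.93 RPKM, no longer above PSAT1. For PHGDH the ratio of the group means, layers over non-layers, was 10.8 by deposited RPKM, 13.3 by counts per library size and 16.8 by CPM on the TMM scale. For PSAT1 these ratios were 2.88, 2.88 and 3.57. In RefSeq's models in GRCg7b, PSPH overlaps CCT6A, a gene of the chaperonin complex, and the part of reads from CCT6A in the counts of PSPH was not tested. PSPH is also the 1 gene of the 4 that the deposited table marks as confounded, a mark whose meaning is not given in the sources used here. The models of PHGDH and PSAT1 overlap no other gene there.

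Of 41 other genes listed for serine, glycine and folate metabolism and the use of methyl groups, 6 carried a name in the deposited table, and only these can be described. edgeR's quasi-likelihood test called 2 of the 6 up-regulated and 1 down-regulated. Of all genes tested, it called 0.901% higher in layers and 1.87% in either direction. The 6 are named because the authors called them on these libraries, so their counts do not speak for the list. D2HGDH, which oxidises D-2-hydroxyglutarate in mitochondria, averaged 30.6 ± 6.47 CPM in layers, against 12.1 ± 2.36 CPM in non-layers (SD, n = 3 each), without overlap, and rose by 1.33 ± 0.25 (SE) on the log2 scale (edgeR adjusted p = 0.047). SRM, the spermidine synthase that uses decarboxylated S-adenosylmethionine, was at 85.2, 129 and 50.5 CPM in layers, against 19.9, 16.9 and 12.9 CPM in non-layers. It rose by 2.41 ± 0.36 (SE) on the log2 scale (edgeR adjusted p = 0.033). Its highest layer was layer 2, like that of ALDH1L2 and of 46.7% of the DEGs higher in layers.

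Of the listed enzymes that use folate one-carbon units for nucleotides, GART and TYMS carried a name. GART, of purine synthesis, was at 29.3, 36.2 and 31.0 CPM in layers, against 76.9, 70.3 and 64.2 CPM in non-layers, and fell by 1.13 on the log2 scale (SE 0.16, edgeR adjusted p = 0.031). TYMS, which makes thymidylate from methylenetetrahydrofolate, was at 11.8, 7.86 and 7.70 CPM in layers, against 38.5, 33.4 and 12.1 CPM in non-layers, but its change of -1.62 ± 0.44 (SE) on the log2 scale did not pass (edgeR adjusted p = 0.10). A list of 11 markers of dividing cells, all of which carried a name, was lower in layers too, with summed CPM of 102 to 115 in layers and 247 to 809 in non-layers and 7 of 11 genes down-regulated. These markers too are named because the authors called them on these libraries. Of the 13317 genes tested, 129 were DEGs with lower expression in layers. The part of dividing cells in the levels of GART and TYMS was not tested. CHDH, the choline dehydrogenase, was at -1.64 on the log2 scale (edgeR adjusted p = 0.082) and AHCYL2, related to the hydrolase of S-adenosylhomocysteine, at 1.67 (edgeR adjusted p = 0.091), so neither passed.

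Of 11 listed amino acid carriers the 1 with a name was SLC6A14, a carrier of neutral and cationic amino acids. It was at 114, 150 and 154 CPM in layers, against 60.4, 43.7 and 77.1 CPM in non-layers. The groups did not overlap, but the change of 1.21 ± 0.24 (SE) on the log2 scale did not pass (edgeR adjusted p = 0.053). Of 24 genes listed for the amino acid response, STC2 alone carried a name, and its change of 1.76 ± 0.47 (SE) on the log2 scale did not pass (edgeR adjusted p = 0.10). Of 16 genes listed for protein folding and secretion, 6 carried a name, all 6 had a higher mean in layers, and 4 were DEGs by edgeR. Among these were GFPT1, which controls entry into hexosamine synthesis, at 1039, 1262 and 852 CPM in layers, against 332, 351 and 332 CPM in non-layers, and SEL1L, of the degradation of misfolded proteins in the endoplasmic reticulum, which rose by 2.01 on the log2 scale. These listed genes are named because the authors called them on the same libraries, so their counts do not speak for the lists as a whole. The other listed genes were not analysed here, as their identifiers could not be paired with names.

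**Figure D5:**
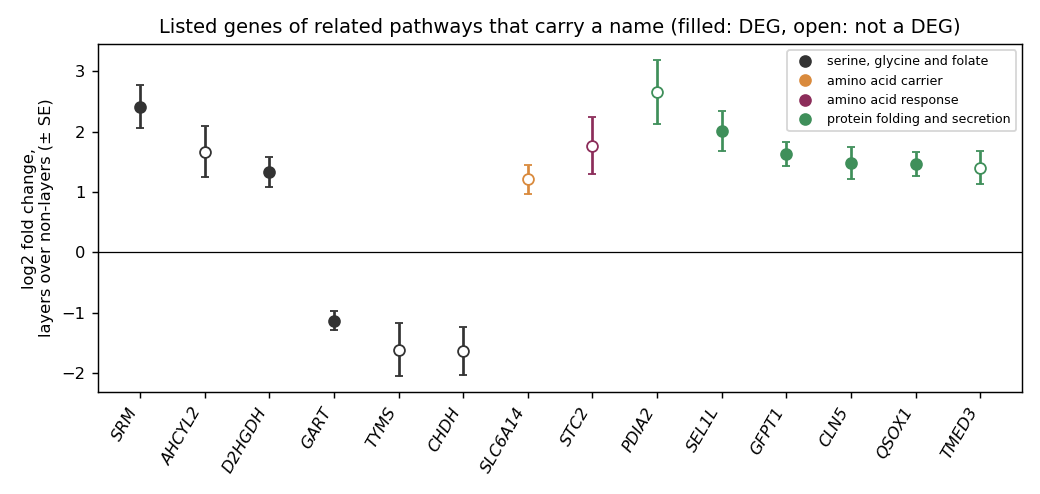
log2 fold change of layers over non-layers by edgeR, with the standard error as the bar, for the 14 listed genes of related pathways that carried a name. SRM, D2HGDH and 4 genes of protein folding and secretion are filled as DEGs above 0, and GART is filled below 0.

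The profile of each of the 4 genes over the 6 libraries, centred on its mean log2 CPM, was compared with that of every other gene tested. Such a profile holds the difference between the groups, by which the authors called the 4 genes. Only genes that the authors called carry a name, so the nearest named genes come from those alone. The root mean square difference of PSAT1 from PSPH was 0.56, the smallest between 2 of the 4 genes. Of the 13316 genes compared with PSAT1, 80 lay closer to it than PSPH did. PSAT1 was 0.29 from its nearest named gene, CHRD, which encodes the BMP antagonist chordin and was at 267, 195 and 62.6 CPM in layers, against 46.1, 34.0 and 29.9 CPM in non-layers. CHRD was also the nearest gene to the mean profile of the 4 genes, at 0.20, followed among named genes by ICA1 (0.27), the chloride channel CLCN2 (0.28), SRM (0.33) and the kinase SGK3 (0.35). Between CHRD and ICA1 came ENSGALG00000046455, at 0.22, which has no name in the files.

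For PHGDH the nearest named gene was GNRHR (0.37), which was at 0, 0 and 0.0521 CPM in non-layers, so that its distance depends on the pseudocount of 0.5 CPM, and the next was TC2N (0.45). For PSPH they were FILIP1L (0.24) and the growth factor GDF2 (0.26). ALDH1L2 lay nearest to ATP2B2 (0.21), the plasma membrane calcium pump, and to the adenosine receptor ADORA2A (0.22). ATP2B2 was at 646, 1208 and 617 CPM in layers, against 148, 190 and 90.7 CPM in non-layers. It shared with ALDH1L2 its highest library in each group, but it was picked for its likeness over these same libraries. From ALDH1L2, 575 of 13316 genes lay closer than PSAT1, the nearest of the other 3 genes. From PHGDH, 45 genes lay closer than PSAT1, whereas from PSAT1 3369 lay closer than PHGDH. By this measure the 4 genes were not each other's nearest neighbours among the genes tested.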

How the data were processed

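Per the paper's methods, the authors cleaned single-end reads with Prinseq (quality 30), aligned them to Galgal 5.0 in Array Studio (version 10) and deposited a table of estimated counts, not normalised, for each Ensembl gene. The counter, its strand setting and the annotation release are not given in the sources used here. All 24 expected counts of the 4 genes, as deposited, were whole numbers, and other fractions were rounded. The authors also deposited RPKM. For the 381 genes with 1 transcript in their comparison table, every RPKM value with at least 10 counts behind it matched, within 1%, the count divided by exonic length and by the total gene count of the library. The comparison table, also deposited by the authors, holds their DESeq2 fold changes (a signed score), p-values and group mean signal, none of which was used, and the gene names and coordinates, which were.

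edgeR 4.0.16 (R 4.3.3) was run on all 6 libraries with TMM, filterByExpr and the quasi-likelihood F-test without covariates. Standard errors are the log2 fold change over the square root of F. DESeq2 1.42.0, and limma 3.58.1 on log2(RPKM + 1) or log2(RPKM + 0.1) for genes with at least 1 RPKM in 3 libraries, were alternatives, with other scalings, filters, call rules, a replicate block and each library left out. Steps were tested on simulated data with 200 changed genes. Exact permutation tests used scipy 1.17.1. Profiles were compared on log2(CPM + 0.5). GRCg7b gene symbols served only to name neighbouring genes. Per the paper, the hens came from a commercial farm and were kept in individual pens in the research facility. The labels do not say whether they shared a day. The edgeR p-values set the difference between the groups against the spread between hens within groups. That spread was estimated for each gene over both groups together and moderated across genes. The SD of log2 CPM in layers and non-layers was unequal for PHGDH (1.53 and 0.60), PSAT1 (1.24 and 0.41) and PSPH (1.00 and 0.19).

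The 4 genes, the lists and the tests were chosen with earlier results of these data known. Named are the 4 genes, the listed genes that carry a name, apart from 1 that is not reported here, and the 5 named and 2 unnamed genes nearest to the mean profile and the 2 nearest to each gene. ENSGALG00000036399, the other unnamed gene, was at 0.31. C12orf45, CCT6A, LOC121107114 and LOC112533513 were named after the values were seen. No sequences are given.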

Additional observations from a re-analysis of the deposited data

How the results depend on the processing

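The number of DEGs was 249 and that of the 4 genes among them 2. The number of DEGs was 781 with library size only, 935 with DESeq2, 842 with DESeq2 and a prior on fold changes, 8 with glmTreat against a 2-fold change, and 604, 662 and 160 with limma on RPKM (pseudocount 1, pseudocount 0.1, and pseudocount 1 without a filter). Of the 4 genes, DESeq2 called 4 without or with the prior, glmTreat called 0 (586 genes had an unadjusted p under 0.05), and limma called 1 with a pseudocount of 1, with or without the filter. With DESeq2 the log2 fold changes that newly passed were 1.86 for PSAT1 and 1.79 for PSPH, and 1.42 for both with the prior. PHGDH no longer passed with glmTreat at 4.07 (adjusted p = 0.15) or with limma and a pseudocount of 1 at 2.44 (adjusted p = 0.054 with the filter and 0.14 without), and ALDH1L2 no longer passed with glmTreat at 2.34 (adjusted p = 0.096). Why these calls moved was not tested.

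In the labels, same-numbered hens share only a number. The correlations of their deviations were -0.17, 0.11 and -0.07 for numbers 1, 2 and 3, which cannot tell whether such hens shared a sampling day. Per the paper, non-layers were sampled at time-points parallel to those of layers. With the number as a replicate block, 21 genes and 1 of the 4 were called, and PHGDH had a log2 fold change of 3.76 (adjusted p = 0.099 by edgeR). With each library left out, the number of DEGs ranged from 0 (in the edgeR fit lacking non-layer 1, in which 1704 genes had p below 0.05 before adjustment) to 274, that of the 4 genes among them from 0 to 3, and the log2 fold changes from 3.76 to 4.56 for PHGDH, 1.27 to 2.27 for PSAT1, 0.94 to 2.07 for PSPH and 2.08 to 2.55 for ALDH1L2. The difference in the log2 ratio of PSAT1 to PSPH turned to -0.46 without layer 2 and to -0.11 without non-layer 3, within a range of -0.46 to 0.48. For all 4 genes the direction was the same under every alternative, and the range among layers moved by less than 1 SD with RPKM or with library size only. With library size only, the median change over all genes shifted by -0.34 on the log2 scale and PHGDH was at 3.74. Counting error limits PHGDH most, with 20 to 37 counts in non-layers.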

Other observations

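SPP1, a phosphoprotein of the eggshell matrix, had its layers in the same order as PHGDH and PSAT1, at 2124, 672 and 160 CPM in layers 1, 2 and 3, against 0.366, 0.246 and 0.782 CPM in non-layers 1, 2 and 3. OCX36, an eggshell protein of the BPI family, was at 4872, 16998 and 1220 CPM in the same layers, against 165, 250 and 46.7 CPM in the same non-layers, so that layer 3 was its lowest layer as well. Other shell gland markers had layer 3 as their highest layer. OTOP2 was at 140, 254 and 309 CPM in layers 1, 2 and 3, against 7.68, 5.03 and 2.97 CPM in non-layers 1, 2 and 3. ATP1B1 was at 1357, 3093 and 3212 CPM and CFTR at 371, 360 and 577 CPM in layers 1, 2 and 3, and MEPE at 46645, 46485 and 52838 CPM. Of the 9 named markers of the shell gland, layer 3 was the lowest layer for 4 and the highest for 4. Layer 3 was the lowest layer for 57 of the 120 DEGs that were higher in layers and for 37.7% of all genes tested.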
